A study of Mus musculus with 10 samples.

Results

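The genes Pmel, Mlana, Gpnmb, Gpr143 and Tspan10 encode structural and membrane proteins of the melanosome, the organelle in which pigment cells make and store melanin. They were taken by their gene symbols in the array's annotation, which gave 10 of the 45281 probes on the array: 2 for Pmel, 1 for Mlana, 4 for Gpnmb, 2 for Gpr143 and 1 for Tspan10. RNA had been measured in 10 frozen mouse melanomas, 5 labelled MPNST-like (amelanotic), after malignant peripheral nerve sheath tumors, and 5 labelled pigmented. All 10 tumors came from the skin of C57BL6 mice with the genotype BrafV600E-CDK4R24C. Tamoxifen had been put on the skin for 4 days to switch on the mutant Braf allele, and 1 dose of the carcinogen DMBA followed. Both groups therefore carry both mutations and both agents, and neither group is normal skin or normal melanocytes. The promoter that drives the tamoxifen-dependent recombinase, the age of the mice and the number of tumors per mouse are not stated in these sources, so p-values measure only the spread between these tumors.

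Melanosomes mature in steps. PMEL protein is cut by proteases and assembles into fibrils, on which melanin is later laid down; MLANA binds PMEL and is needed for its processing. GPNMB is a glycoprotein related in sequence to PMEL, GPR143 is a receptor of the melanosome membrane whose loss causes ocular albinism, and TSPAN10 is a tetraspanin of the TspanC8 group, which escorts the protease ADAM10. GPNMB is also made by macrophages and osteoclasts, whereas the other 4 are known mainly from pigment cells.

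Each tumor was hybridized to 1 Illumina MouseWG-6 v2.0 array, a single-colour bead array. Median probe intensity was 87.4 to 93.9 in MPNST-like and 79.4 to 89.0 in pigmented arrays, and the lowest intensity called detected was 89.1 to 95.2 in MPNST-like and 81.6 to 92.1 in pigmented arrays. An intensity near 90 is therefore background. The arrays sat on 2 chips, and each chip held both groups: chip 1 carried MPNST-like 1 and 2 beside pigmented 1 and 2, and chip 2 carried the remaining 6 tumors. Differences are log2 normalized intensity, MPNST-like minus pigmented, from limma over the 22480 probes detected on at least 3 arrays, and a probe was called at a Benjamini-Hochberg adjusted p under 0.05. The median difference of all these probes was -0.03.

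All 5 melanosome protein genes had less RNA in the MPNST-like melanomas. All 10 of their probes passed the filter on low signal, all 10 were called lower, and for all 10 the normalized values of the groups did not overlap. The 5 probes undetected in 3 or more MPNST-like tumors passed the filter only with the help of pigmented tumors. The weakest, Gpr143 ILMN_1242255, was detected in 0 MPNST-like and 3 pigmented tumors. Its groups were 0.06 log2 units apart near background, so it adds little to these counts. Across the array 18.7% of tested probes were called lower and 12.7% were lower without overlap. The genes were chosen with earlier results of these data known, so setting their counts beside these shares is a description and not a test. By the brightest probe of each gene, the fall was 173.6-fold for Pmel, 103.4-fold for Tspan10, 65.7-fold for Gpr143, 59.5-fold for Mlana and 15.9-fold for Gpnmb. A log2 difference below -5 was found for 0.102% of tested probes (23 probes), and 6 of these 23 were probes of the 5 genes. In whole tumors, fewer pigment cells and less RNA per pigment cell cannot be told apart.

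**Figure D1:**
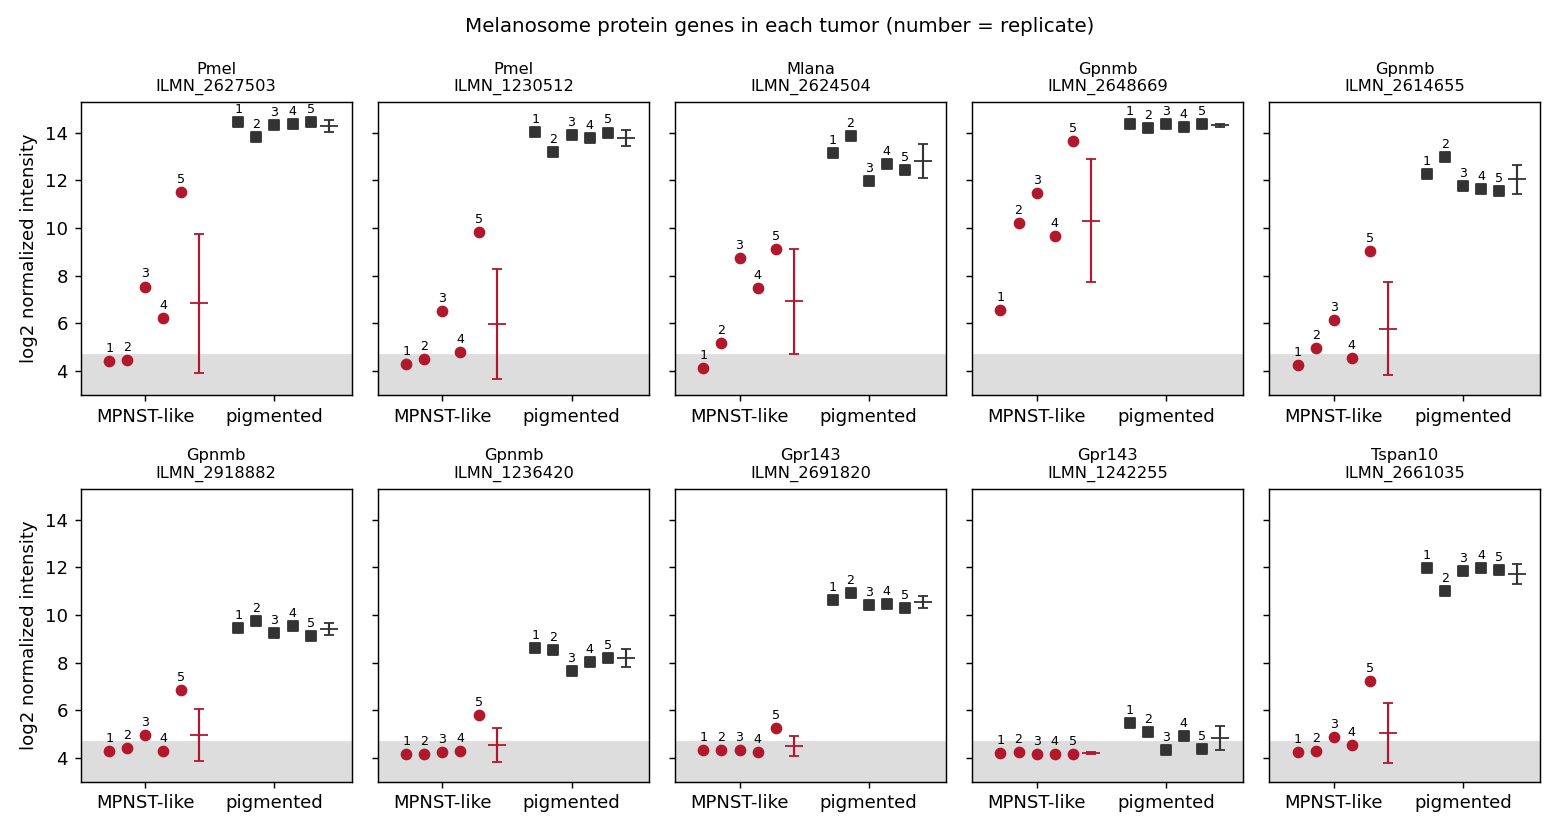
Log2 normalized intensity of the 10 probes in each tumor, with MPNST-like tumors as red circles and pigmented tumors as dark squares, numbered by replicate; the bar beside each group is the mean and SD (n = 5), and the grey band lies below the highest detection limit of the arrays. MPNST-like 5 was the highest of its group in 9 of 10 panels, and 5 probes were undetected in at least 3 of 5 MPNST-like tumors.

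Pmel, the fibril protein of the melanosome, showed the largest fall of any tested probe on the array. Its brighter probe, ILMN_2627503, read 90.7, 96.3, 270.0, 156 and 3062 in MPNST-like tumors 1 to 5, against 26499, 15607, 20033, 21471 and 20657 in pigmented tumors 1 to 5. MPNST-like 1 lay at background, while MPNST-like 5 stood far above the other 4 and still 2.29 log2 units below the lowest pigmented tumor. The normalized level was 6.84 ± 2.93 in MPNST-like and 14.28 ± 0.27 in pigmented tumors (log2, SD, n = 5 each), a difference of -7.44 (SE 1.11, limma adjusted p = 5.3e-04). The second probe, ILMN_1230512, read 86.7, 97.0, 168, 98.8 and 1068 in MPNST-like tumors, against 19821, 8637, 13194, 13720 and 13620 in pigmented tumors. It gave the largest decrease of all tested probes (-7.80, SE 0.89, limma adjusted p = 1.1e-04), and ILMN_2627503 the next.

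The 5 MPNST-like levels of ILMN_2627503 spanned 7.11 log2 units and the 5 pigmented levels spanned 0.64. Except in pigmented 2 (15607 against 25045), the pigmented values lay close to the brightest signal of any probe on their arrays, 20657 to 26499. In pigmented 1 and 5 they were that signal, so differences among the pigmented tumors other than pigmented 2 may not be read from this probe. Set against the pigmented mean, Pmel was 106.1-fold lower in MPNST-like 3, 266.7-fold in MPNST-like 4 and 6.73-fold in MPNST-like 5, while MPNST-like 1 and 2, at or near the detection limit, read 0.439% and 0.466% of the pigmented median raw intensity. The group difference moved with single tumors: it was -8.61 without MPNST-like 5, -6.83 without MPNST-like 1 and -6.85 without MPNST-like 2. Within chip 1 it was -9.69 (SE 0.33) and within chip 2, which holds MPNST-like 3 to 5, -5.94 (SE 1.19), and the probe was called on each chip alone, as were 8 of the 10 probes (1.17% of all tested probes were called lower on chip 1 and 13.8% on chip 2).

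The Pmel gene spans chr10:128695888-128720238 in the RefSeq annotation of GRCm38.p6, an interval that overlaps 3 other genes on the array, and these did not share one direction. Cdk2, which encodes a kinase of the cell cycle and lies inside that interval at chr10:128697938-128705051, was lower by all 4 of its probes, with differences of -3.71 to -3.02. In human melanoma cells CDK2 is known to be driven, like the adjoining PMEL gene, by the pigment cell factor MITF. The brightest Cdk2 probe read 720.1, 870.8, 621.6, 776.6 and 1944 in MPNST-like tumors, against 9770, 4012, 4096, 4526 and 4436 in pigmented tumors. The groups did not overlap, and MPNST-like 5 was again the highest of its group (difference -3.02, SE 0.33, limma adjusted p = 9.1e-05). Dgka, a diacylglycerol kinase gene at the other end of the interval, was higher by 2 of its 3 probes: the brightest read 573.2, 559.3, 531.0, 536.2 and 354.7 in MPNST-like tumors, against 170.8, 163.3, 180.5, 168.8 and 124.0 in pigmented tumors (difference 1.51, SE 0.22, adjusted p = 4.5e-04). Rab5b, an endosomal GTPase gene, had overlapping groups and a smaller difference (-1.20, SE 0.41, adjusted p = 0.042), which was not called within either chip (adjusted p = 0.18 and 0.29).

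**Figure D2:**
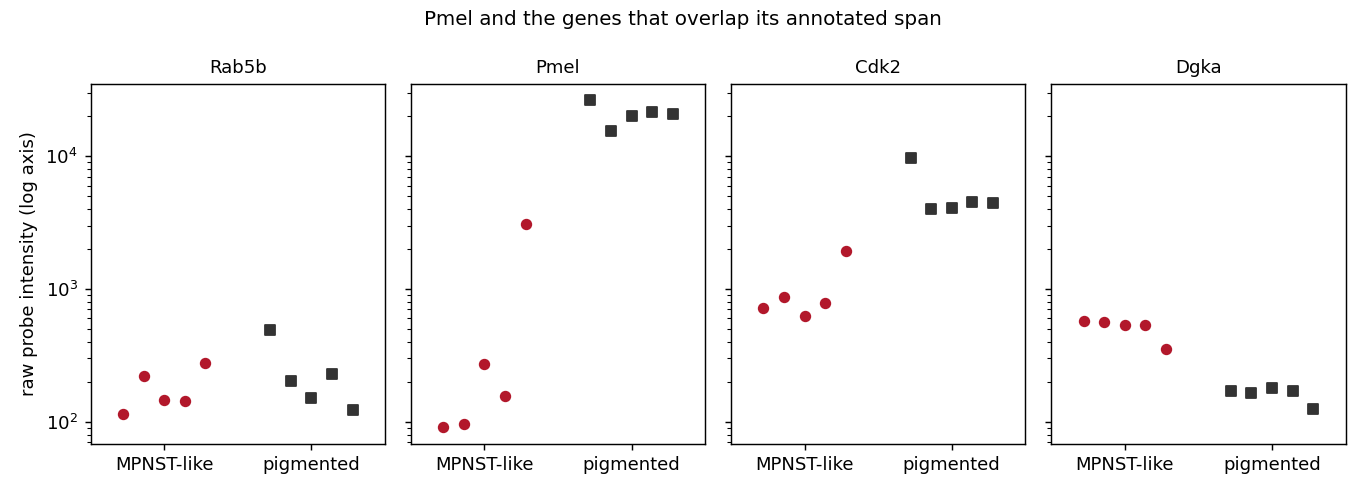
Raw intensity (log axis) of the brightest probe of Pmel and of the 3 genes that overlap its annotated interval, with 1 point per tumor in replicate order, MPNST-like in red and pigmented in dark. Pmel and Cdk2 were lower in all 5 MPNST-like tumors than in any pigmented tumor, Dgka was higher in all 5, and Rab5b overlapped.

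Mlana, which encodes the small membrane protein MART-1 that associates with PMEL, lies at chr19:29697541-29708447. Its single probe, ILMN_2624504, read 79.3, 121, 531, 279.1 and 697.3 in MPNST-like tumors, against 10170, 16357, 2901, 6518 and 4250 in pigmented tumors. The probe was undetected in MPNST-like 1 and detected in the other 4, with MPNST-like 3 and 5 highest, and the pigmented levels spanned 1.87 log2 units. The level was 6.93 ± 2.20 in MPNST-like and 12.83 ± 0.71 in pigmented tumors (log2, SD, n = 5 each), a difference of -5.90 (SE 0.88, limma adjusted p = 5.1e-04). Without MPNST-like 1 it was -5.20.

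Mlana had the widest gap between the chips. Its difference was -8.85 (SE 0.48, limma adjusted p = 0.010) within chip 1 and -3.93 (SE 0.43, adjusted p = 0.0033) within chip 2, and a group by chip term gave -4.92 (SE 0.72, unadjusted p = 6.5e-05). Adjusted over the 22480 probes that p became 0.99, and 0 probes on the array passed in this test (857 had an unadjusted p under 0.05). The chips hold different tumors, so chip and tumor cannot be told apart. The coding gene next to Mlana that was tested, 9930021J03Rik, was near background in both groups (difference -0.19, SE 0.13, adjusted p = 0.31).

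Gpnmb, the glycoprotein gene related to Pmel, had the smallest fall of the 5 genes by its brightest probe. It lies at chr6:49036518-49058182 and was 1 of 2 of the 5 genes with an entry in the RefSeq promoter table of GRCm38.p6. The window from 250 bases before to 50 bases after its start, chr6:49036268-49036567 on the plus strand, is shown for comparison with that of Tspan10. The E-box forms bound by MITF and its relatives were searched on both strands, and neither TCATGTG nor TCACGTG is written in it, nor the core CACGTG that TCACGTG contains. The capitals mark TGACTCA, the letters of an AP-1 element, which begin at base 9 of the gene and were looked for after the window had been seen:

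Gpnmb: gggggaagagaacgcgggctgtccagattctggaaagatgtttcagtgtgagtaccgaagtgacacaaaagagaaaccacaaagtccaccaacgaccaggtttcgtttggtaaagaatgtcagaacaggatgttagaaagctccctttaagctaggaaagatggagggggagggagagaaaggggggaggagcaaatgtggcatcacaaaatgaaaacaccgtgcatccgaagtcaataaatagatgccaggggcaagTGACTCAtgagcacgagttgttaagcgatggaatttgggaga

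TGACTCA, on either strand, is in 5.20% of the 32851 promoter windows of the table. The match is a string of letters, and no binding was measured.

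The brightest Gpnmb probe, ILMN_2648669, read 184, 1596, 2967, 1024 and 11380 in MPNST-like tumors, against 24289, 21970, 20362, 20444 and 19022 in pigmented tumors. It was detected in all 10 tumors, and MPNST-like 5 came to within 0.56 log2 units of the lowest pigmented tumor, 1.58-fold below the pigmented mean. The level was 10.32 ± 2.60 in MPNST-like and 14.31 ± 0.07 in pigmented tumors (log2, SD, n = 5 each), a difference of -3.99 (SE 0.99, limma adjusted p = 0.0093). Single tumors moved it: the difference was -3.05 without MPNST-like 1 and -4.83 without MPNST-like 5. Within chip 1 it was -5.89 (adjusted p = 0.083) and within chip 2 -2.73 (adjusted p = 0.059), so it was called on neither chip alone. The pigmented values lay close to the brightest signal of any probe on their arrays, 20657 to 26499, and what that did to the size of the difference was not tested.

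The other 3 Gpnmb probes gave differences of -6.26 to -3.67, and all 3 were called on each chip alone. ILMN_2614655 read 85.3, 112, 145, 93.1 and 665 in MPNST-like tumors, against 5358, 7299, 2525, 2911 and 2300.2 in pigmented tumors (difference -6.26, SE 0.78, limma adjusted p = 1.8e-04). ILMN_2918882 read 86.8, 93.5, 99.6, 85.4 and 209 in MPNST-like tumors, against 813.5, 775.3, 453.3, 703.6 and 423.1 in pigmented tumors (-4.47, SE 0.43, adjusted p = 4.2e-05). ILMN_1236420 read 80.1, 82.8, 83.3, 85.9 and 138 in MPNST-like tumors, against 483.3, 350.0, 182, 293.3 and 249.0 in pigmented tumors (-3.67, SE 0.32, adjusted p = 2.5e-05). By these 3 probes MPNST-like 5 was highest of its group as well. ILMN_2918882 was detected in 2 and ILMN_1236420 in 1 of the 5 MPNST-like tumors, so the size of their falls is limited by background.

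Markers of macrophages, which are also known to make GPNMB, were mostly higher in MPNST-like tumors. Of 13 tested macrophage genes 10 were called higher and 1 lower, with a median difference of 1.41, where 18.3% of all 11984 genes were called higher and their median was 0.01. Their summed raw intensity was 9072 to 23110 in MPNST-like and 2998 to 10384 in pigmented tumors, and none was undetected in both groups. Aif1 (3.08) and Mrc1 (2.90) were the largest increases, and Mertk, a receptor for the uptake of dead cells, was the decrease (-1.52). In the authors' values 5 macrophage genes were higher, and 1 was called higher on chip 1 alone and 4 on chip 2 alone. Among the MPNST-like tumors the macrophage list was highest in MPNST-like 2 and lowest in MPNST-like 1. By the brightest probes MPNST-like 1 was also lowest for Gpnmb, Pmel and Mlana. How much of the remaining Gpnmb signal came from macrophages was not tested.

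Gpr143, the melanosomal receptor, was at background in nearly all MPNST-like tumors. It lies at chrX:152781921-152808651, and its main probe, ILMN_2691820, read 88.0, 91.0, 85.7, 84.3 and 116 in MPNST-like tumors, against 1812, 1709, 995.1, 1309 and 968.9 in pigmented tumors. Only MPNST-like 5 was detected, at 38.6-fold below the pigmented mean, and 5.03 log2 units separated the groups. The level was 4.50 ± 0.43 in MPNST-like and 10.54 ± 0.23 in pigmented tumors (log2, SD, n = 5 each), a difference of -6.04 (SE 0.21, limma adjusted p = 1.5e-07). It was called on both chips (-6.44 on chip 1, -5.77 on chip 2). Since 4 of 5 MPNST-like values are background, the 65.7-fold fall is limited by the detection floor. With each undetected array raised to that floor the ratio was 58.8-fold. The size also depended on the background correction: the log2 difference was -4.74 with an offset of 50 and -4.14 with no background correction.

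The second Gpr143 probe, ILMN_1242255, was designed on another transcript record and carried little signal. It read 83.7, 87.3, 78.8, 79.0 and 78.4 in MPNST-like tumors, against 112, 95.6, 77.9, 90.8 and 80.5 in pigmented tumors. It was not well above background in any MPNST-like tumor and was detected in 3 of 5 pigmented tumors, so no fold is given for it. Its raw values overlapped, and its normalized levels were apart by 0.06 log2 units. The call (difference -0.64, SE 0.21, limma adjusted p = 0.039) was lost in 13 of 24 alternative settings, at adjusted p up to 0.25. The gene beside Gpr143, Shroom2, which encodes an actin-binding protein, was called lower by 1 of 2 tested probes (-1.51, SE 0.27, adjusted p = 0.0016).

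By the brightest probes Tspan10, the tetraspanin gene, had the second largest fall among the 5 genes, a place that is limited by background. It lies at chr11:120442631-120447321, and it was the other gene with a RefSeq promoter window, chr11:120442381-120442680 on the plus strand. The window is shown because it holds TCATGTG, an E-box form that is the core of the longer M-box in promoters of melanin synthesis genes. The letters are on the reverse strand, as CACATGA in capitals, beginning 21 bases before the gene (position -21):

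Tspan10: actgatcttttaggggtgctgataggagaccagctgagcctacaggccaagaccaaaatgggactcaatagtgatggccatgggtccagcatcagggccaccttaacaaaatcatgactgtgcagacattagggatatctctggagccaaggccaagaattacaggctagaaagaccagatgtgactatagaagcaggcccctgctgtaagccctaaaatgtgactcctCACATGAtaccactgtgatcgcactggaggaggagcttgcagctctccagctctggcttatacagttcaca

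The same letters are in the windows of all 3 melanin synthesis genes, once each for Tyr and Tyrp1 and at 2 places for Dct. The sites are set below the Tspan10 site, each read on the strand that shows TCATGTG, with its 9 neighbours on each side and the 7 letters in capitals:

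Tspan10 site, chr11:120442601-120442625, minus strand: acagtggtaTCATGTGaggagtcac
Tyr site, chr7:87493519-87493543, minus strand: aaaagttagTCATGTGctttgcaga
Tyrp1 site, chr4:80834157-80834181, plus strand: gggagggagTCATGTGctgcctagt
Dct site, chr14:118052382-118052406, minus strand: cacttagggTCATGTGctaacaaag
Dct site, chr14:118052463-118052487, plus strand: ttattgggcTCATGTGtcccagcca

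TCATGTG, on either strand, is in 3.77% of the 32851 promoter windows in the table. The Tyr and Tyrp1 copies begin at -22 and -47 and the Dct copies at -151 and -232, and neither TCACGTG nor its core CACGTG is in any of these 4 windows. The Tyr and Tyrp1 sites have ag before and ct after these letters, whereas the Tspan10 site has ta before and ag after. The Tspan10 site thus shares the core letters but not these neighbours. These are matches of letters, and no factor was measured on them.

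The Tspan10 probe, ILMN_2661035, read 85.8, 88.4, 97.8, 92.3 and 252.5 in MPNST-like tumors, against 4244, 1829, 2635, 3624 and 2846 in pigmented tumors. MPNST-like 3 and 5 were detected and the other 3 MPNST-like tumors were at background, while every pigmented tumor lay at least 3.76 log2 units above MPNST-like 5. The level was 5.03 ± 1.25 in MPNST-like and 11.72 ± 0.42 in pigmented tumors (log2, SD, n = 5 each), a difference of -6.69 (SE 0.51, limma adjusted p = 1.1e-05). It was -7.20 within chip 1 and -6.35 within chip 2. The ratio was 96.5-fold with undetected arrays raised to the detection floor. Its size depended on the background correction as well: the log2 difference was -5.57 with an offset of 50. With no background correction the Tspan10 difference was -5.04, beside -5.02 for Mlana.

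The 6 genes of the TspanC8 tetraspanins, Tspan10 among them, had a median difference of -0.26, with 2 called lower and 1 higher, where 19.9% of all 11984 genes were called lower and 18.3% higher, so the counts of so few genes are not a result about the group. Tspan14 was the other decrease (-0.71, SE 0.22, limma adjusted p = 0.030), but was not called after median scaling, in which only Tspan10 was lower. Tspan15 was higher (1.76, SE 0.39, adjusted p = 0.0049), at 481.2, 221.9, 256.1, 313.3 and 182.9 in MPNST-like tumors, against 94.6, 115, 110, 94.5 and 97.9 in pigmented tumors. Adam10, the protease these tetraspanins escort, was not called (-0.28, SE 0.17, adjusted p = 0.24). Nploc4, the tested neighbour of Tspan10, was lower (-1.31, SE 0.17, adjusted p = 2.5e-04), and Pde6g, 286 bases beyond the end of Tspan10, was not tested because its probe was not detected often enough.

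**Figure D3:**
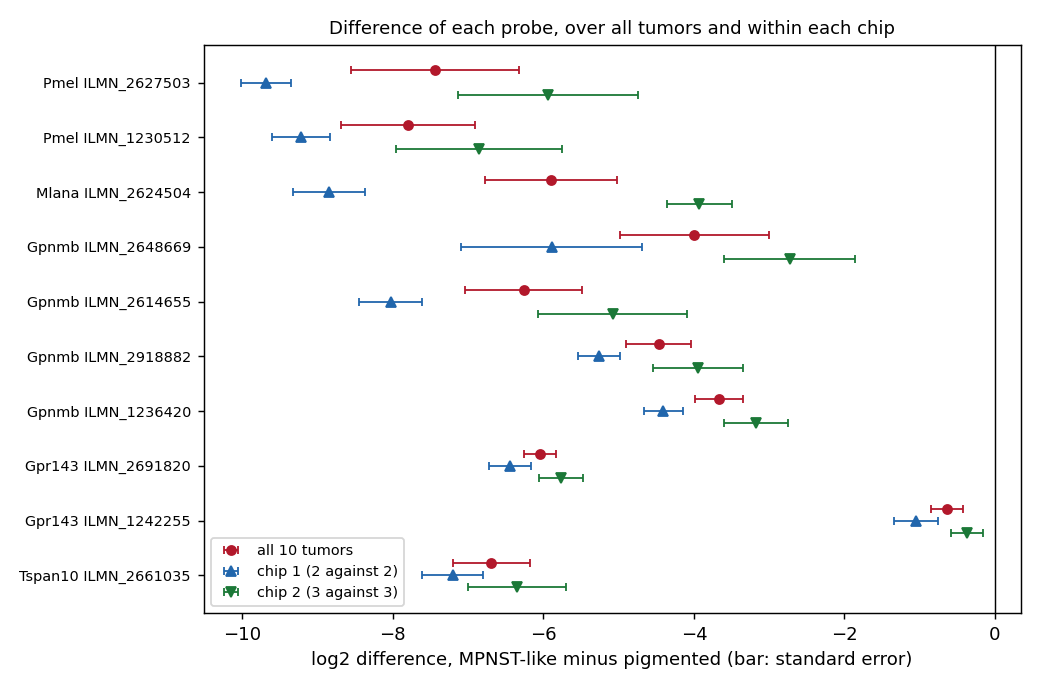
Log2 difference of each probe, MPNST-like minus pigmented, with its standard error, over all 10 tumors (red circles), within chip 1 (blue, 2 against 2 tumors) and within chip 2 (green, 3 against 3). All 30 values lie below 0, the chip 1 value is the lower of the chips for all 10 probes, and Mlana shows the widest gap, -8.85 against -3.93.

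In ascending order the MPNST-like tumors ran 1, 2, 4, 3, 5 for both Pmel probes, Mlana and Tspan10, and 1, 4, 2, 3, 5 for Gpnmb ILMN_2648669 and ILMN_2614655. The order was 4, 1, 2, 3, 5 for Gpnmb ILMN_2918882 and Gpr143 ILMN_2691820, 1, 2, 3, 4, 5 for Gpnmb ILMN_1236420 and 4, 5, 3, 1, 2 for Gpr143 ILMN_1242255. Places among undetected tumors, as for most of Gpr143 and Tspan10, have no meaning. MPNST-like 1 was lowest by 7 of 10 probes and MPNST-like 5 highest by 9 of 10. These orders are descriptions of 5 tumors, and the genes were read from the same arrays. Markers of skeletal muscle were high in MPNST-like 2, MPNST-like 5 and pigmented 4, with 0 of 10 called by limma in either direction and 0 at an unadjusted p under 0.05. Without these 3 tumors 9 of the 10 probes were still called lower, as were 2950 of all 22480 tested probes. Leaving these 3 tumors out was chosen after their muscle signal had been seen.

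By the brightest probes, MPNST-like 5 lay at different distances from the pigmented mean. It was 1.58-fold lower for Gpnmb, 6.73-fold for Pmel, 13.1-fold for Mlana, 22.5-fold for Tspan10 and 38.6-fold for Gpr143. The other 3 Gpnmb probes gave 8.06-fold, 5.99-fold and 5.29-fold in the same tumor, so the place of Gpnmb rests on its brightest probe, whose pigmented values lay near the top of the array signal. The melanin synthesis genes of the same tumor also differed in how far they lay from the pigmented tumors: Dct, the dopachrome tautomerase gene, read 14243, inside the pigmented range of 13342 to 20019, Tyrp1 read 5437 against 11413 to 17581 in pigmented tumors, and Tyr, the rate-limiting enzyme, read 177 against 357.8 to 789.3 in pigmented tumors. Without MPNST-like 5 the differences of the 5 genes were -8.61 for Pmel, -7.24 for Tspan10, -6.44 for Mlana, -6.23 for Gpr143 and -4.83 for Gpnmb. MPNST-like 1, by contrast, was at background for Pmel, Mlana, Gpr143 and Tspan10 and was 215-fold below the pigmented mean for Gpnmb.

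**Figure D4:**
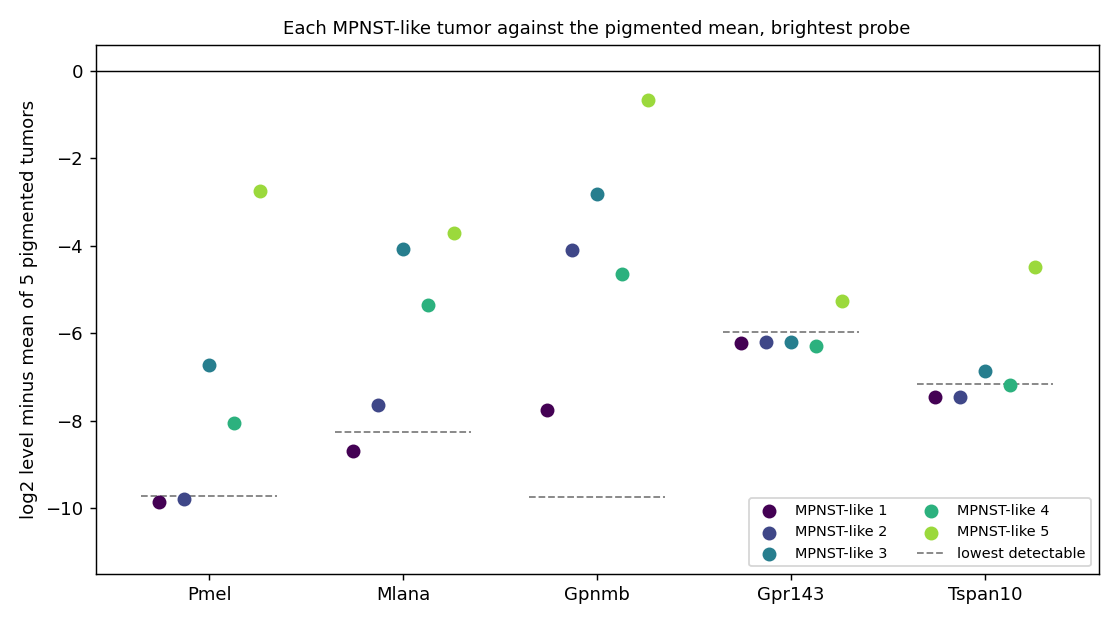
Log2 level of each MPNST-like tumor minus the mean of the 5 pigmented tumors for the brightest probe of each gene; the dashed line is the highest detection limit of the MPNST-like arrays on the same scale. MPNST-like 5 is nearest to the pigmented mean for every gene, by 0.66 log2 units for Gpnmb and 5.27 for Gpr143, and the other 4 tumors lie at or near the detection limit for Gpr143 and Tspan10.

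Whether the members fell by unequal amounts was tested on the difference between 2 genes within each array, over all 10 pairs. The test was an exact permutation test, two-sided, over every assignment of 5 of the 10 tumors (smallest possible p = 0.0079). Pmel minus Gpnmb differed between the groups by -3.45 log2 units without overlap (exact p = 0.0079, adjusted over the pairs 0.079). Mlana minus Gpnmb differed by -1.90 (exact p = 0.016, adjusted 0.079) and Gpnmb minus Tspan10 by 2.70 (exact p = 0.040, adjusted 0.13). So 0 of 10 pairs passed after adjustment and 3 had an unadjusted p under 0.05, each with Gpnmb in it. Pmel minus Gpnmb reached the smallest possible p, and over 10 pairs a single pair at that p cannot pass. The count of 0 therefore does not show that the falls were equal. The other 7 pairs had exact p-values of 0.079 to 0.88, and their differences ran from -1.54 for Pmel minus Mlana to 2.05 for Gpnmb minus Gpr143.

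These pairs turned on which Gpnmb probe was used. With ILMN_2614655 Pmel minus Gpnmb was -1.18 (exact permutation p = 0.11, adjusted 0.56). With ILMN_2918882 and ILMN_1236420 the pairs of Gpnmb with Gpr143 and Tspan10 are not read as unequal falls, because both genes of each pair were near background in most MPNST-like tumors, and the value then follows from the brightness of the probes in pigmented tumors. The main pairs with Gpr143 or Tspan10 are limited in the same way for that gene.

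The genes whose profiles over the 10 arrays lay nearest to each member were found among 11983 other genes by the root mean square difference of centred log2 levels, in which a smaller value is a closer match. Tyrp1, a melanin synthesis enzyme gene, was nearest to Pmel (0.70), followed by the melanosome transporter Slc45a2 (1.09) and Tspan10 (1.17). For Mlana, Syngr1, a synaptic vesicle protein gene, lay at 1.07, Rab38, a GTPase that brings enzymes to melanosomes, at 1.09 and Tyrp1 at 1.10. The nearest to Gpnmb were Chchd10, a mitochondrial protein gene (0.81), Dct (0.89) and Rab27a, which tethers melanosomes for transport (0.94). Pmel itself was number 304 from Gpnmb. That place rests on the brightest Gpnmb probe, whose pigmented values lay near the top of the array signal, and the other Gpnmb probes were not ranked.

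Gpr143 had the closest match of the 5 members. Trpm1, a cation channel gene of melanocytes, lay at 0.16 and read 85.7, 79.7, 90.3, 84.9 and 113 in MPNST-like tumors, against 1942, 1797, 1303, 1244 and 907.0 in pigmented tumors. Slc6a17, a transporter gene known from neurons, lay at 0.49 and the melanosome chloride channel gene Oca2 at 0.52. Tspan10 was nearest to Slc45a2 (0.41), Oca2 (0.42) and Slc6a17 (0.47). Gpr143 was detected in 1 and Trpm1 in 2 of the 5 MPNST-like tumors, and values shared at background bring such profiles closer. These likenesses describe 10 arrays of 2 groups, and every gene named here was itself called lower, so no p-value is attached.

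Among 66 tested genes outside the 5 members, from lists on melanosome and lysosome biology, 39 were called lower and 4 higher. Of all 11984 genes, 19.9% were called lower and 18.3% higher. The lists were chosen with earlier results of these data known, so these counts are a description and not a test. The counts were 27 lower and 10 higher after median scaling, which raises the median difference of all probes to 0.24, and 47 lower and 2 higher by the authors' values, which lower it to -0.21.

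Of 12 tested genes whose proteins cut and sort PMEL and GPNMB, 3 were lower, 2 higher and 7 not called, shares near the 19.9% and 18.3% of all genes, with a median difference of -0.19 that changed sign after median scaling (0.25). Psen2, a catalytic subunit of gamma-secretase, had the largest fall and read 214, 283.8, 199.8, 197 and 306.2 in MPNST-like tumors, against 1647, 2236, 1259, 1917 and 1482 in pigmented tumors (difference -3.78, SE 0.20, limma adjusted p = 2.9e-06). Bace2, the protease that releases the amyloid fragment of PMEL in mice, was lower too (-2.48, SE 0.50, adjusted p = 0.0031). Cd63, a tetraspanin that sorts PMEL within endosomes, fell by 1.33 (SE 0.14, adjusted p = 6.9e-05). The membrane proteases Mmp14 (1.29) and Adam17 (1.27) were higher, and the lipoprotein gene Apoe, on whose particles PMEL is loaded, was not called (0.11, SE 0.27, adjusted p = 0.79).

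All 3 melanin synthesis enzymes were lower, with differences of -6.36 for Tyrp1, -4.59 for Dct and -4.31 for Tyr, and of these Dct overlapped between the groups. Of 4 melanosome transporters Slc45a2 (-6.89), Oca2 (-6.52) and the copper pump Atp7a (-1.26) were lower and Tpcn2 was not called (-0.06). Atp7a was not called after median scaling (-0.72, limma adjusted p = 0.070) or on chip 1 alone (adjusted p = 0.22). All 3 genes of melanosome transport were lower, with Rab27a at -4.55, its adaptor Mlph at -3.31 and the motor Myo5a at -1.78.

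Of 19 genes of the BLOC, HOPS and AP-3 complexes and their partners, which deliver cargo to melanosomes and to related organelles of other cells, 11 were lower and 1 higher, with a median difference of -0.68. Rab38, found in few cell types, had the largest difference, -4.67 (SE 0.50, limma adjusted p = 7.8e-05), and the next were Ap3d1 (-1.54), Hps4 (-1.51) and Hps1 (-1.32), while Bloc1s2 was higher (0.89). After median scaling 6 were lower and 6 higher and the median was -0.14, so the direction of this list rests on the scaling. Of 14 lysosome genes 9 were lower and none higher, with a median of -0.65, led by Ctsd (-1.98), Gaa (-1.74), Mcoln1 (-1.61) and Atp6v0d1 (-1.58). After median scaling 7 were lower and 1 higher.

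All 6 tested transcription factor genes of pigment cells and their relatives were lower, by a median of -1.33, and 3 of them after median scaling. Mitf, the master regulator of melanosome genes, read 92.4, 91.1, 85.9, 89.1 and 113 in MPNST-like tumors, against 328, 116, 177, 153.7 and 164 in pigmented tumors. It was detected in 1 of 5 MPNST-like and 5 of 5 pigmented tumors (difference -2.57, SE 0.34, limma adjusted p = 2.6e-04). Pax3 (-2.31) and Tfap2a (-1.79) were lower as well. Sox10, which marks melanocytes and Schwann cells alike, was detected in all 10 tumors and differed least among these 4 (-0.87, SE 0.25, adjusted p = 0.021). Sox10 was not called after median scaling (-0.63, limma adjusted p = 0.091) or within either chip (adjusted p = 0.31 and 0.058). All 10 tumors are labelled melanoma. Of the pigment cell markers, Dct was detected in 5 of 5 MPNST-like tumors, Tyrp1, Pmel and Mlana in 4 of 5, and Tyr and Mitf in 1 of 5, and each of the 6 was detected in all pigmented tumors.

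**Figure D5:**
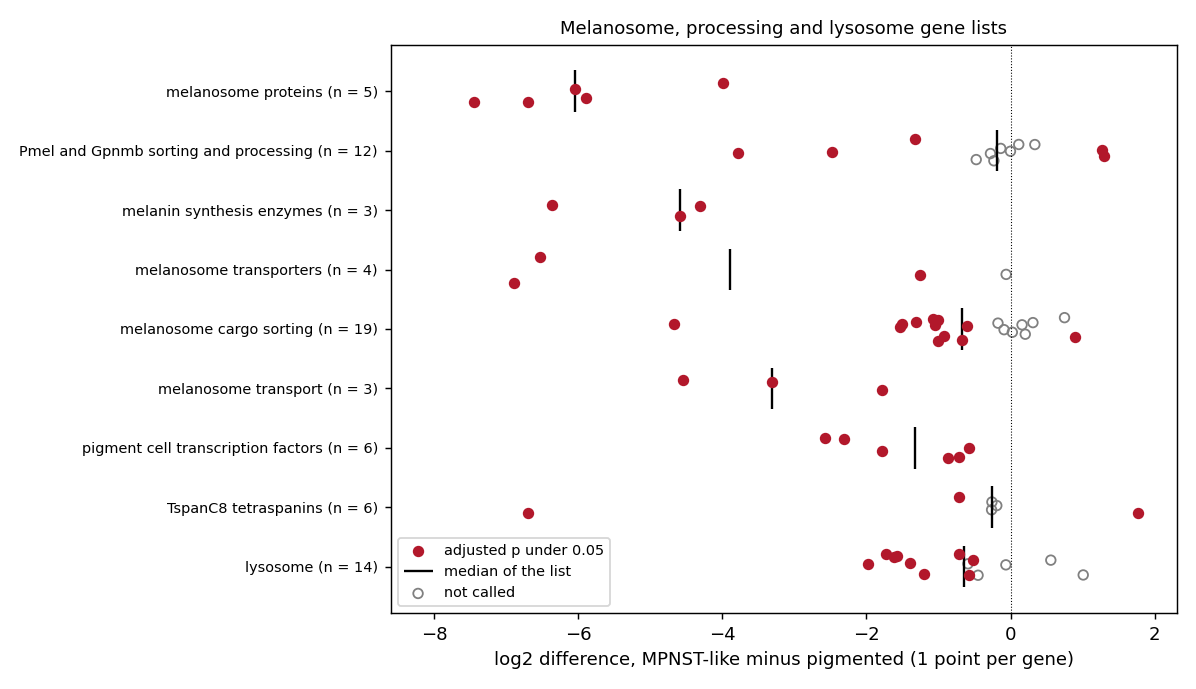
Log2 difference, MPNST-like minus pigmented, of every tested gene in each list (1 point per gene, brightest probe), with called genes filled, genes not called open and the list median as a black line; points are spread vertically for legibility. The 5 melanosome protein genes lie between -7.44 and -3.99, while the medians of the sorting and processing, cargo sorting, TspanC8 and lysosome lists lie between -0.68 and -0.19.

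Some markers of other cells differed between the groups as well, where 18.3% of all genes were called higher and 19.9% lower, and their part in the fall of the 5 genes was not tested. Of 10 fibroblast genes 10 were higher, with summed intensity of 34994 to 48697 in MPNST-like and 2053 to 17838 in pigmented tumors, and the largest were Lum (5.09) and Col3a1 (4.35). Of 9 Schwann cell genes 5 were higher and 4 not called, with sums of 6592 to 9636 in MPNST-like and 1442 to 3117 in pigmented tumors, led by Gap43 (5.14) and Ngfr (4.15). Mast cell genes were higher for 4 of 7 (1133 to 4550 in MPNST-like, 600.6 to 1401 in pigmented tumors), keratinocyte genes for 2 of 10 (5824 to 33963 in MPNST-like, 2375 to 23336 in pigmented tumors) and endothelial genes for 2 of 7, with 1 lower (2581 to 4662 in MPNST-like, 1582 to 2248 in pigmented tumors), and the keratinocyte and endothelial counts are near the share over all genes. Erythrocyte genes were lower for 2 of 4 (2124 to 19790 in MPNST-like, 4646 to 26303 in pigmented tumors), and T cell genes (349.1 to 696.9 in MPNST-like, 321.1 to 376.5 in pigmented tumors) were called by limma for 0 of 4, with 1 at an unadjusted p under 0.05.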

How the data were processed

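Members and gene lists were chosen with earlier results of these data known. Per the file headers, the deposited scanner table holds bead intensities and detection p-values, and no intensity was below 0. A second deposited table holds the authors' values on a log2 scale, whose normalization is not given in the sources used here and which served as an alternative. Per the labels' protocols, 100 ng of total RNA was made into biotinylated cRNA.

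Intensities were corrected with neqc of limma 3.58.1 in R 4.3.3 (offset 16, background from detection p-values), quantile normalized and put on the log2 scale. The 22480 probes with a detection p-value under 0.05 on 3 or more of the 10 arrays were fitted with lmFit and eBayes, with Benjamini-Hochberg adjustment over all. The brightest probe stood for a gene (11984 genes). The script was tested on simulated data. Symbols came from the platform annotation (34885 probes with 1 symbol, 18 with several, 10378 with none), and 34807 matched RefSeq of GRCm38.p6. The number of arrays limits the precision. Named genes were every member probe, the 3 nearest profiles and the chromosome neighbours of each member, up to 4 called genes per pathway list and the 2 largest per marker list; genes given beside a result of a member, such as Tspan15, Adam10, Apoe and Tpcn2, were chosen after their values were seen. Alternatives were other background corrections, scalings, filters and probe rules, the authors' values, chip as a block, each chip alone and leaving out each tumor. Promoter windows came from RefSeq (32851 windows). Python 3.11.15 with matplotlib 3.10.9 drew the figures.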

Additional observations from a re-analysis of the deposited data

Results flagged for a closer look

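In each group of 5 tumors the gap between the most extreme tumor and its neighbour was divided by the range of the group. This was done for the 10 probes in both groups, and 6 of these 20 groups passed the 95% critical value of 0.71. Chance passes about 1 in 20 where groups are independent. These groups share tumors and genes, so that rate is no standard for the count. MPNST-like 5 stood above its group for Gpr143 ILMN_2691820 (0.906), Tspan10 (0.795) and the Gpnmb probes ILMN_1236420 (0.919) and ILMN_2918882 (0.739). The other 4 MPNST-like tumors were at or near background for these probes, which narrows their spread and raises the ratio. Pigmented 2 stood below its group for Tspan10 (0.869, intensity 1829) and for Pmel ILMN_2627503 (0.789, intensity 15607). For that Pmel probe the other pigmented tumors lay near the brightest signal of their arrays. Pigmented 2 was the highest pigmented tumor for Mlana (16357) and for Gpnmb ILMN_2614655 (7299). It also had the highest mean of the erythrocyte genes, 4.00 log2 units above their mean over all tumors. No cause of these values was tested.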

How the results depend on the processing

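Under 25 alternatives 8 to 10 of the 10 member probes were called lower (9 to 10 with 1 tumor left out), and none changed sign. Gpnmb ILMN_2648669 lost its call on each chip alone, and the weak Gpr143 ILMN_1242255 did so in 13 of 24 settings. All tested probes gave 3460 higher and 4196 lower calls, against 6127 and 1567 when arrays were scaled by their medians, 2002 and 6640 by the authors' values and 389 and 264 on chip 1 alone (2819 to 3641 higher and 3480 to 4464 lower with 1 tumor left out). Of the pathway genes 4 were higher and 39 lower, against 10 higher when scaled by medians, 2 higher by the authors' values, and 0 higher and 11 lower on chip 1 alone, which holds 4 tumors (4 to 5 higher and 32 to 39 lower with 1 tumor left out). For the scalings the cause was not tested. For pairs of members by the brightest probes 0 of 10 passed in any of 18 alternatives; with Gpnmb read from ILMN_2918882 or ILMN_1236420, chosen after seeing the data, its pairs with Gpr143 and Tspan10 passed (exact permutation, adjusted p = 0.040), with both genes near background in most MPNST-like tumors. Mlana minus Gpr143, not called at 0.14, was -0.13 with normexp without detection p-values, -0.88 with no background correction, -0.58 with an offset of 50, -0.20 in the authors' values and -0.35 to 0.79 with 1 tumor left out (-0.35, -0.06 and -0.21 without MPNST-like 3, 4 and 5, and -0.03 without pigmented 3). The pairs could not pass on single chips (smallest p 0.33 and 0.10), and over all 10 tumors a single pair at the smallest p could not pass alone. No paired analysis was possible because the labels carry no replicate numbers. Signal near background limits the size of every fall in which MPNST-like tumors were undetected.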
